A study of Mus musculus with 4 samples.

Results

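Remote myocardium was taken as the spots of each heart section that were rich in cardiomyocyte transcripts and poor in scar matrix transcripts. The sections came from 4 injured neonatal mouse hearts and were measured with Visium, a spatial assay in which a tissue section releases its RNA onto an array of barcoded spots and each captured molecule is counted by its unique molecular identifier (UMI). Spots with at least 500 UMIs were ranked within their own section. A spot was called remote when its share of UMIs from the matrix genes Col1a1, Col1a2, Col3a1, Postn, Fn1 and Tnc was no higher than the section's median, and its share from the cardiomyocyte genes Atp2a2, Ryr2, Myh6 and Myl2 was no lower than the median. This gave 1062 of the 3056 spots kept, out of 3067 in the matrices. These spots were chosen by the measured UMI shares of those 10 genes. The d1 section gave 151 of 445 spots, the d4 section 239 of 662, the d7 section 269 of 774 and the d14 section 403 of 1175.

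The 4 groups were ICR mice, an outbred stock, in which the tip of the left ventricle was frozen on postnatal day 1 by a cooled probe held on it for 5 seconds (cryoinjury). Hearts of the groups d1, d4, d7 and d14 were collected 1, 4, 7 and 14 days later, when the animals were at postnatal days 2, 5, 8 and 15, and fresh frozen tissue was cut into 10 µm sections at a level where the injury could be seen. Each day had 1 section. All 4 hearts carried the injury, and no uninjured heart was analysed here, so age and time after injury cannot be told apart. With 1 section a day there was no test between days and no p-value. The 95% intervals given below are exact and cover counting error only.

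Around birth, mouse cardiomyocytes still divide. In the weeks that follow they leave the cell cycle, exchange fetal sarcomere proteins for adult isoforms, build the membrane systems that link excitation to calcium release, and shift their fuel from glucose toward fatty acids. A heart injured soon after birth can regrow muscle, and this capacity is lost as the cells mature.

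Because the cuts were set within each section, they differed between days. Over d1, d4, d7 and d14 the matrix cut was 0.180%, 0.383%, 0.347% and 0.283% of UMIs, and the cardiomyocyte cut was 3.45%, 3.21%, 3.42% and 4.64%. At d1 the spots just inside and just outside the matrix cut had 0.180% and 0.182%, and those just inside and outside the cardiomyocyte cut had 3.453% and 3.450%, so the border divides spots of nearly equal shares. Genes of the rule are given as a description: Col3a1 had 452, 1125, 1149 and 1077 CPM (UMIs per 1000000 UMIs) over d1, d4, d7 and d14 in remote spots. The total leaves out haemoglobin and mitochondrially encoded genes. The remote spots of the later days held more collagen transcript than those of d1. Myh6 had 16640, 14488, 16516 and 28046 CPM.

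Spot positions and images were not used, so remote refers to expression and not to a mapped distance from the injury. One cardiomyocyte gene that the rule did not use is given as a description. Spots chosen for cardiomyocyte transcripts are likely to be high in another, so it is no check of the label. Other muscle genes, such as Nppa and Xirp2 at d4, were lower in remote spots than in the rest, as given below. Tnnt2, cardiac troponin T, had 12390, 9502, 7620 and 8828 CPM over the 4 days in remote spots, against 10605, 6975, 6531 and 7541 CPM in the rest of the sections. All 6 lung epithelium markers were at 0 UMIs in remote spots at d1, d4 and d7, and 5 of the 6 at d14. The remote spots had median UMI counts of 7955, 7201, 8382 and 3703 over the 4 days, and 1122537 to 2049185 UMIs per day entered the totals. Mitochondrially encoded genes took 5.69%, 6.20%, 12.9% and 9.12% of UMIs. The d7 remote spots held 1 UMI of Xist and 175 of the Y-linked gene Eif2s3y, against 51 to 97 and 0 in the other sections, so the d7 section also differed in sex-linked transcripts.

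Of 7453 genes that reached 20 CPM in at least 1 day, 229 (3.07%) rose at every step and ended at least 2-fold above d1, and 267 (3.58%) fell at every step and ended at least 2-fold below it. These genes were named by the values shown here, so their courses are a description. Among them, 27 rising genes (0.362%) and 24 falling genes (0.322%) also had a counting interval that left out 1 at each of the 3 steps. The last step held the largest change for 115 of the rising and 159 of the falling genes, the step to d4 for 89 and 47, and the step to d7 for 25 and 61. The last step, from d7 to d14, spans the most days, so these counts do not compare rates per day. The split of 229 rising against 267 falling became 172 against 312 when haemoglobin and mitochondrially encoded genes were counted in the total. Over 8 other scalings and spot choices, 94 of the rising genes (41.0%) and 98 of the falling genes (36.7%) kept their call in every one. In such pooled spots, fewer cells of a type and less RNA per cell cannot be told apart. The list counts below stand beside the shares of all genes tested, 3.07% rising and 3.58% falling. Between d14 and d1 the shares were 8.49% higher and 8.33% lower by 2-fold. A gene entered that comparison on reaching 20 CPM on either day, so a gene low at d14 entered through d1.

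**Figure D1:**
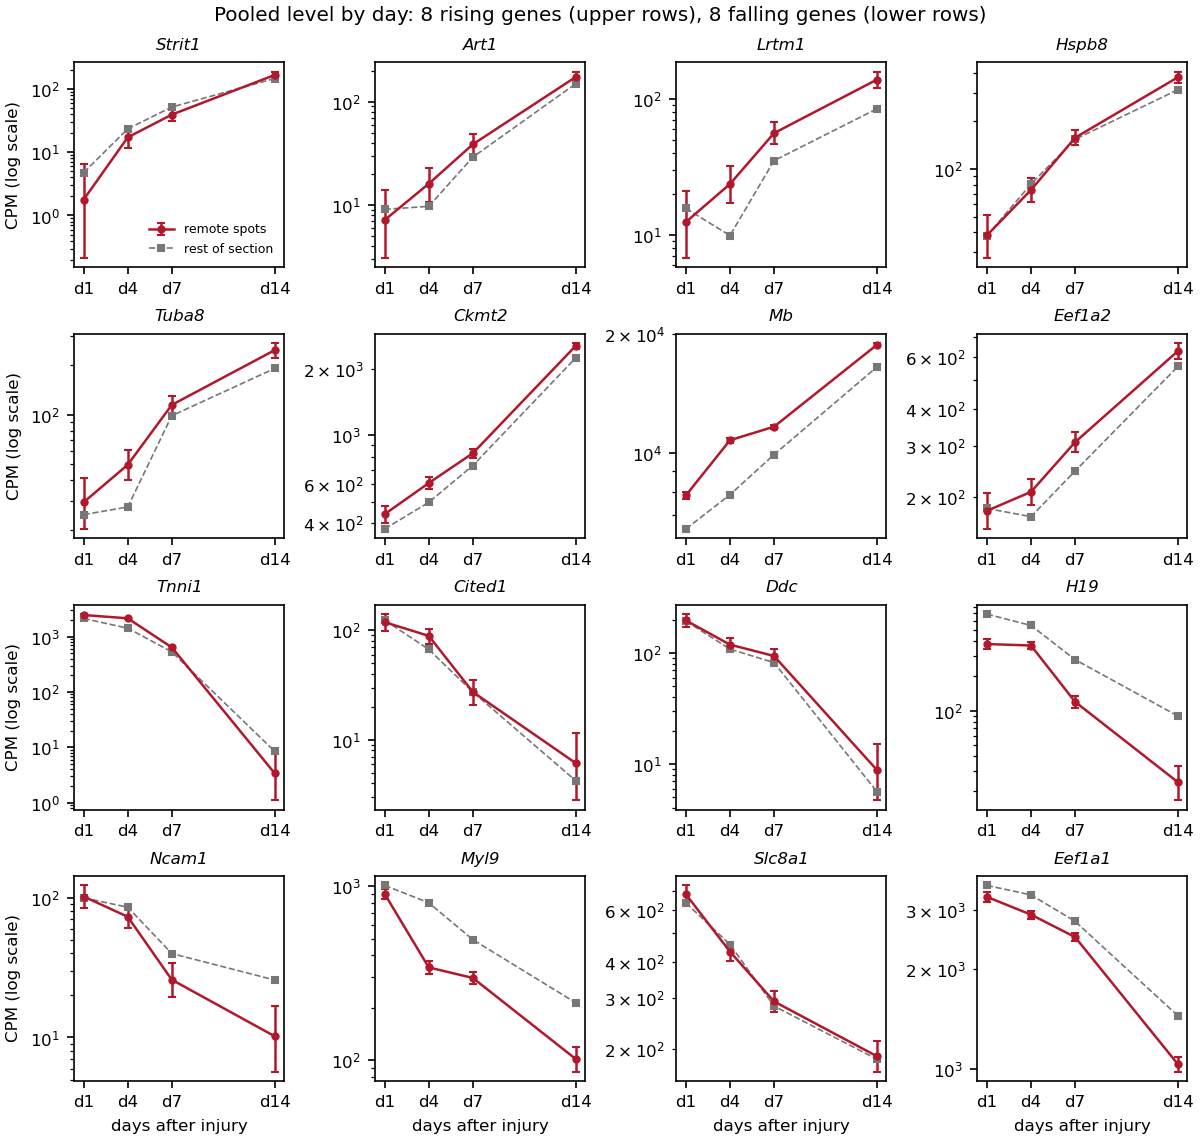
Pooled CPM (log axis) against days after injury (linear axis) for 8 rising genes in the upper rows and 8 falling genes in the lower rows. Red circles are remote spots with 95% counting intervals, and grey squares are the rest of each section. Strit1 climbs to 165 CPM at d14 in remote spots, while Tnni1 drops to 3.40 CPM.

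Of 9 fetal isoforms of the contractile apparatus that could be compared between d14 and d1, 4 were at least 2-fold lower at d14 and 2 higher, while most adult sarcomere genes changed by less than 2-fold. Over all genes tested, 8.33% were lower and 8.49% higher. Tnni1, the slow skeletal troponin I that fetal heart muscle uses, had 2456, 2143, 639 and 3.40 CPM over d1, d4, d7 and d14, from 2757, 3883, 1309 and 5 UMIs. It fell at every step and was 722-fold lower at d14 than at d1 (95% interval 309 to 2225), with most of that change after d7. Tnni1 lies on chromosome 1, from 135779434 to 135810989 on the plus strand of GRCm38. Its adult counterpart Tnni3, cardiac troponin I, had 4835, 5346, 6521 and 9482 CPM, a ratio of d14 to d1 of 1.96 (1.90 to 2.02), just under the 2-fold line of the rule. Myh7, the slow myosin heavy chain, took another course, with 2980, 4307, 1170 and 323 CPM. It was thus highest at d4 and was 9.24-fold lower at d14 than at d1 (8.39 to 10.2).

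Among 11 fetal isoforms, of which 10 were tested, 3 fell (Myl7, Myl9 and Tnni1) and 1 rose (Tagln), against 3.58% and 3.07% of all genes tested. The median log2 ratio to d1 over the list was -0.05 at d4, -1.09 at d7 and -1.78 at d14, against 0.20, -0.01 and -0.06 over all genes tested. The d14 median was -0.05 over the members with 50 or more UMIs and -0.83 without spots that held atrial or skeletal muscle UMIs, so it depends on which members and spots are kept. Myl9, a regulatory myosin light chain of smooth muscle and immature heart muscle, had 903, 341, 297 and 101 CPM and was 8.91-fold lower at d14 than at d1 (7.49 to 10.7). Its call was lost under trimmed mean of M-values (TMM) scaling. Myl7, the atrial light chain, had 30, 5, 3 and 2 UMIs, and its call was lost without spots that held atrial or skeletal muscle UMIs. Tagln, an actin-binding protein of smooth muscle, had 12.5, 19.3, 24.9 and 48.3 CPM.

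The 23 adult sarcomere genes had a median log2 ratio of 0.14 at d14, and none rose or fell at every step. The list holds Myh6 and Myl2, which chose the spots. Against 575 genes (8.49%) higher and 564 (8.33%) lower by 2-fold at d14 among 6774 tested, 3 of the 23 were higher and 1 lower. Tcap, which caps titin at the Z-disc, had 315, 511, 482 and 1289 CPM. Lmod2, which lengthens thin filaments, had 57.9, 51.3, 93.2 and 178 CPM. Myom2, an M-band protein, had 278, 748, 637 and 591 CPM, so its difference was already present at d4. Synpo2l, a Z-disc protein, was the lower one, with 338, 362, 285 and 113 CPM.

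The genes called among those of cell junctions and of the link to the surrounding matrix were all risers. Of 25 intercalated disc and costamere genes, 24 were tested, 4 rose (Itga7, Lama2, Lamb2 and Xirp2) and none fell. Among all genes tested, 3.07% rose and 3.58% fell. Itga7, the laminin-binding integrin of muscle, had 68.6, 83.3, 111 and 182 CPM, a 2.66-fold higher level at d14 than at d1 (2.06 to 3.47). Lama2, the laminin chain of the muscle basement membrane, had 96.2, 145, 191 and 212 CPM. Lamb2, another laminin chain, had 148, 257, 299 and 389 CPM with each step outside counting error. Xirp2, an actin-binding protein of the disc, had 10.7, 14.4, 53.7 and 66.7 CPM.

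The calcium handling genes called were 2 risers and 1 faller. Strit1 encodes DWORF, a micropeptide that relieves the SERCA pump from phospholamban, and lies on chromosome 3 from 63481112 to 63483879 on the minus strand. It had 2, 31, 80 and 242 UMIs, or 1.78, 17.1, 39.0 and 165 CPM, in remote spots, and each step lay outside counting error. The ratio of d14 to d1 was 92.4, with a wide interval of 25.3 to 768 because d1 had 2 UMIs. In the rest of the sections Strit1 had 4.76, 23.3, 51.4 and 145 CPM. Hrc, which binds calcium in the sarcoplasmic reticulum, had 248.5, 258, 360 and 780 CPM, and its call was lost under TMM scaling and with means over spots. Slc8a1, the sodium-calcium exchanger, ran the other way at 681, 433, 292 and 189 CPM. It was 3.60-fold lower at d14 than at d1 (3.13 to 4.14). Of the 25 listed genes 19 were tested, and these 2 risers and 1 faller were the ones called, against 3.07% and 3.58% of all genes. Atp2a2 and Ryr2 of that list chose the spots.

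Of 26 ion channel and pump genes 19 were tested, 4 rose, among them Hcn2 and Kcnj8, and none fell. The shares over all genes tested were 3.07% rising and 3.58% falling. Hcn2, a pacemaker channel also found in ventricle, had 5, 38, 55 and 60 UMIs, so its d1 level rests on few molecules. Kcnj8, a channel gated by ATP, had 25.8, 38.1, 49.8 and 59.2 CPM. Kcnip2, the subunit of the transient outward potassium current, had 62.4, 110.4, 163 and 163 CPM. Kcnq1 was lower at d14, with 71.3, 75.6, 48.3 and 32.0 CPM, while its partner Kcne1 had 192, 533, 480.2 and 124 CPM and so was high at d4 and d7.

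A creatine kinase gene and the myoglobin gene rose at every step. Ckmt2, the mitochondrial creatine kinase, had 440.1, 608, 829 and 2532 CPM, each step outside counting error, and was 5.75-fold higher at d14 than at d1 (5.24 to 6.33). Mb, myoglobin, which stores oxygen in muscle, had 7830, 10783, 11663 and 18754 CPM and was 2.40-fold higher at d14 (2.34 to 2.45). These were the 2 risers among 8 tested phosphagen and oxygen store genes, against 3.07% of all genes tested.

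The citric acid cycle list had 0 risers and 0 fallers among 22 tested genes and a median log2 ratio of 0.17 at d14. Of 30 fatty acid oxidation genes 0 rose and 1 fell (Acot2, a mitochondrial thioesterase), and the median log2 ratio was -0.35 at d4, -0.47 at d7 and -0.08 at d14. Lpl, the lipase that frees fatty acids from lipoproteins, had 775, 584, 586 and 1768 CPM. Cpt1a, the liver form of the carnitine transferase that admits fatty acids to mitochondria, had 65.9, 69.0, 36.6 and 28.6 CPM.

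In glycolysis, 1 of 18 tested genes rose and 3 fell, against 3.07% and 3.58% of all genes tested. Slc2a4, the insulin-responsive glucose transporter of muscle, had 106, 155, 165 and 267 CPM, and lost its call when all genes entered the total. Slc2a1, the transporter of the fetal heart, had 37.4, 12.7, 12.7 and 10.9 CPM from 42, 23, 26 and 16 UMIs, so nearly all of its difference arose before d4, and its call was lost under 3 of the 8 settings. Eno1, the ubiquitous enolase, had 196, 188, 161 and 66.7 CPM, whereas the muscle enolase Eno3 had 1748, 1611, 2056 and 1973 CPM. Pgam1 had 261, 185, 131 and 111 CPM, whereas the muscle form Pgam2 had 961, 770, 974 and 964 CPM.

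Oxct1, which lets tissues burn ketone bodies, had 214, 224, 237 and 579 CPM. Its steps to d4 and d7 were within counting error, and its call was lost under 3 of the 8 settings.

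Of 88 tested respiratory chain genes 0 rose and 3 fell, near the 3.58% that fell among all genes tested. The 3 fallers were Cox6a1, Cox8a and Cox6b2, all subunits of cytochrome oxidase, and Cox8a lost its call under TMM scaling. Cox6a1, the liver form, had 1261, 803, 639 and 372 CPM. Cox7a1, the muscle form of another subunit, had 1388, 1301, 2016 and 3012 CPM and was 2.17-fold higher at d14 than at d1 (2.05 to 2.30). The median log2 ratio of the chain was 0.07 at d14.

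**Figure D2:**
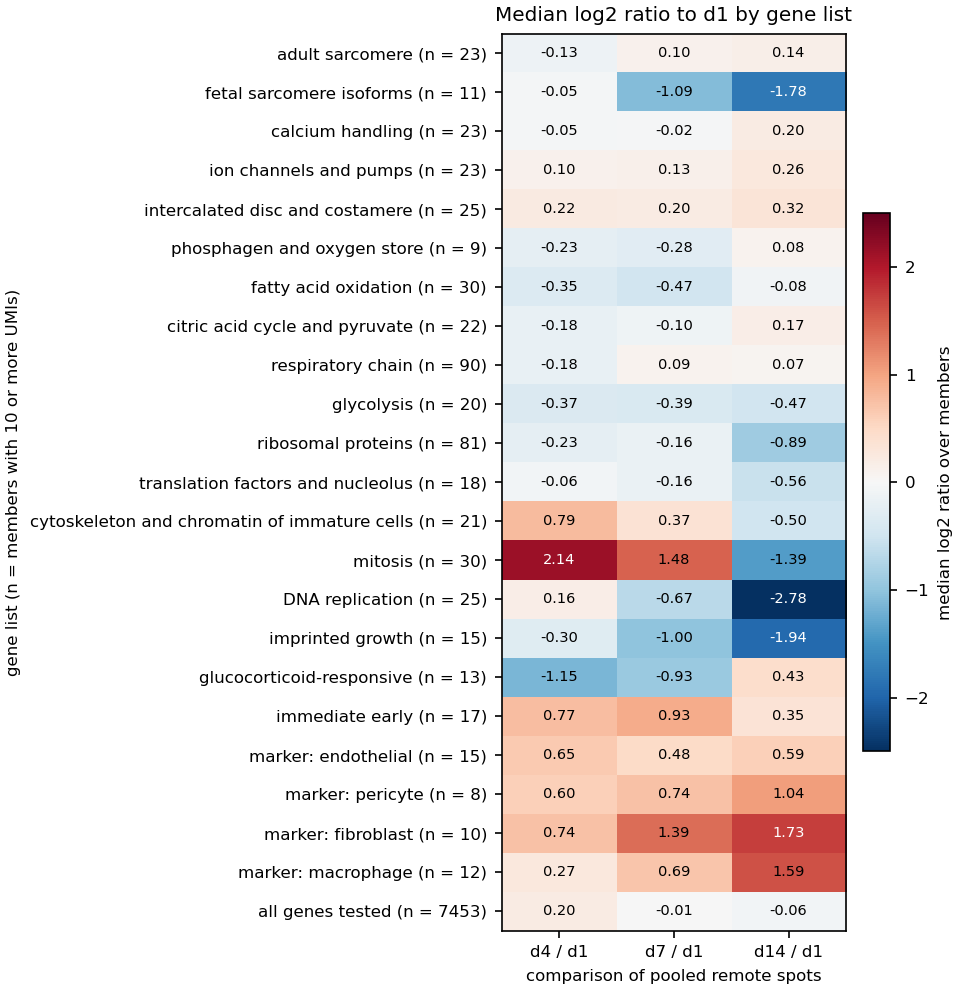
Median log2 ratio to d1 in pooled remote spots, by gene list (rows, with the number of members that had 10 or more UMIs) and by comparison (columns d4, d7 and d14). Mitosis genes are red at d4 (2.14) and blue at d14 (-1.39, and -0.48 with spots chosen by tertiles, which is not drawn), DNA replication genes are bluest at d14 (-2.78), and respiratory chain genes stay near 0.

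Cell cycle genes did not decline steadily. The 30 mitosis genes summed to 304 CPM at d1 (95% interval 272 to 338), 1311 at d4, 815 at d7 and 118 at d14, so the day of the highest level was d4. Ube2c, a ubiquitin carrier needed for exit from mitosis, had 20.5, 120.3, 66.4 and 6.13 CPM. Cdk1, the kinase that drives entry into mitosis, had 24.1, 80.03, 65.4 and 4.76 CPM. Mki67, the Ki-67 proliferation antigen, had 24.9, 83.9, 47.3 and 4.08 CPM. None of the 22 mitosis genes tested rose or fell at every step, and 5 of the 6 that could be tested between d14 and d1 were at least 2-fold lower at d14. The share over all genes tested was 8.33%. Of these 2 days, Ube2c, Cdk1 and Mki67 reached the minimum of 20 CPM only at d1, so the filter favours lower genes. The median log2 ratio of d14 to d1 over the list was -1.39, and -0.48 when the outer tertiles chose the spots.

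DNA replication genes were spread differently in time. They summed to 1113, 1262, 690.0 and 200.1 CPM over the 4 days, and 8 of 20 tested genes fell at every step (Cdc45, Cdt1, E2f1, Gins2, Mcm2, Mcm3, Mcm5 and Rfc4). Between d14 and d1, 19 of 19 tested genes were at least 2-fold lower at d14. Over all genes tested, 3.58% fell at every step and 8.33% were 2-fold lower at d14. Genes entered the comparison on reaching 20 CPM at d1 or d14, and several did so only at d1, so the filter favours lower genes. Over all 25 listed genes, each with 10 or more UMIs, the median log2 ratio of d14 to d1 was -2.78. Mcm2, a subunit of the replicative helicase, had 76.6, 56.3, 38.1 and 12.3 CPM with each step outside counting error. Rrm1, a subunit of the enzyme that makes deoxynucleotides, had 102, 116, 56.1 and 14.3 CPM. Uhrf1, which keeps DNA methylation through replication, had 38.3, 40.8, 18.5 and 3.40 CPM. Under the other settings E2f1 lost its call in 3, Gins2 in 2, and Cdc45 and Rfc4 in 1 each.

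The promoters of these lists are shown because both list medians were lower at d14 than at d1, and to set short cell cycle motifs of the 2 lists side by side. Those printed were picked, in order of UMIs, for holding the motifs marked below in the printed window. Mitosis promoters had to hold both kinds. Promoters without the motifs were passed over, so the capitals do not show how common a motif is. The sequences are the 150 bases before the start site on the gene's own strand, 5′ to 3′, from RefSeq on GRCm38.p6. In the mitosis genes, capitals mark TTTGAA or its reverse complement TTCAAA, the core of the cell cycle genes homology region, and CCAAT or its reverse complement ATTGG, the NF-Y motif. In the replication genes, capitals mark TTCCCGC or its reverse complement GCGGGAA, an E2F motif.
Ube2c, chr2:164769779-164769928, plus strand: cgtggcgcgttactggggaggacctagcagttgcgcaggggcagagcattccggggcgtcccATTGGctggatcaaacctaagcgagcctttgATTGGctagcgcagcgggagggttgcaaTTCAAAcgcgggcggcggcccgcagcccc
Cdk1, chr10:69352913-69353062, minus strand: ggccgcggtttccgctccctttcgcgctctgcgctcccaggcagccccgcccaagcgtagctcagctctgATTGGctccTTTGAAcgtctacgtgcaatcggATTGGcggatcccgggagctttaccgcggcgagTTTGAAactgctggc
Mki67, chr7:135716380-135716529, minus strand: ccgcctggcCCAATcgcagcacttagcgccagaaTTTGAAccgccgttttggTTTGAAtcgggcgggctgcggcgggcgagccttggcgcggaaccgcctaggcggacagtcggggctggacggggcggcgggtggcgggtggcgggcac
Rrm1, chr7:102441545-102441694, plus strand: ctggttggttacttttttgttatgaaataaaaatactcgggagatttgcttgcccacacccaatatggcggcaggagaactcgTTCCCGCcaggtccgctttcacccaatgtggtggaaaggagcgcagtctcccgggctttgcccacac
Uhrf1, chr17:56303187-56303336, plus strand: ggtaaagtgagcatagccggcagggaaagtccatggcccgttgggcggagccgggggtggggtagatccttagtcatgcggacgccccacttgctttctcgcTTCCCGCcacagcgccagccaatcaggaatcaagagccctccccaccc

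In Ube2c the TTCAAA begins 29 bases and the nearer ATTGG 57 bases before the start site. In Cdk1 a TTTGAA begins 71 bases and an ATTGG 80 bases before it. The motifs were searched on both strands in windows from 250 bases before to 50 after the start site. TTTGAA was found in 21 of 26 mitosis promoters (80.8%), against 10.8% of the 5979 promoters of tested genes in the table. CCAAT was found in 22 of 26 (84.6%), against 39.3%. In replication promoters the TTTGAA share was 14.3% and the CCAAT share 52.4%. The E2F motif TTCCCGC was found in 8 of 21 replication promoters (38.1%) and in 0 of 26 mitosis promoters, against 8.73% of all. AAGGTCA (reverse complement TGACCTT), a nuclear receptor motif, and CACGTG, the E-box, were in 0 and 1 of the mitosis promoters and in 1 and 2 of the replication promoters, against 2.89% and 10.7% of all. The tables held promoters for 26 of 30 mitosis genes and 21 of 25 replication genes. For the rising and falling genes they held 72.1% and 79.0%, too few for the same count. A match is a description of letters and not of a bound site.

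**Figure D3:**
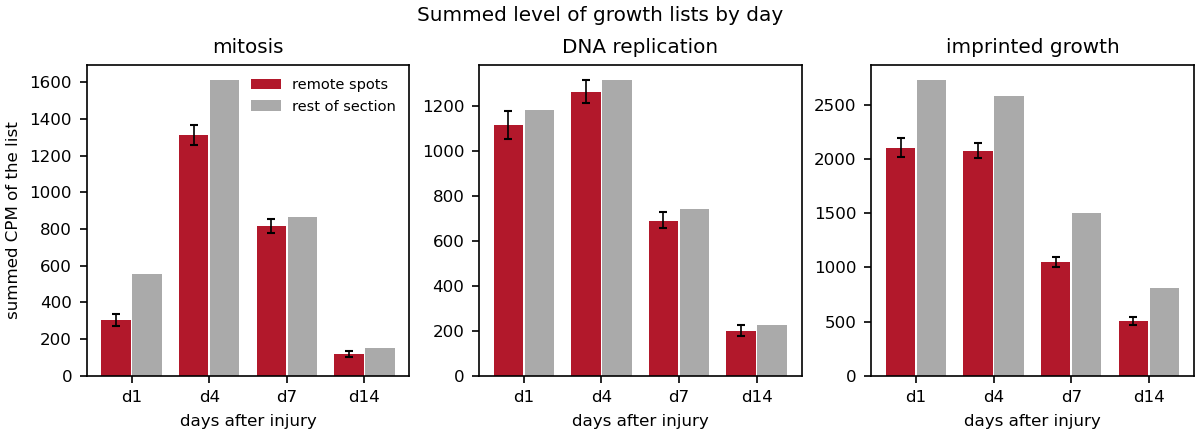
Summed CPM of 3 growth lists by day in remote spots (red, with 95% counting intervals) and in the rest of each section (grey). The mitosis sum peaks at d4 at 1311 CPM in remote spots, against 1611 in the rest, and all 3 lists are lowest at d14.

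Imprinted growth genes, which are expressed mainly from the copy of 1 parent and regulate fetal growth, were lower late. Of 11 tested genes 6 fell at every step (Dlk1, Grb10, H19, Igf2r, Peg3 and Plagl1) and 9 were at least 2-fold lower at d14 than at d1. Among all genes tested, 3.58% fell and 8.33% were lower. Grb10 lost its call when the outer tertiles chose the spots. H19, a long noncoding RNA, had 379, 368, 119 and 23.8 CPM, and was 15.9-fold lower at d14 than at d1 (11.3 to 23.1). Plagl1, a zinc finger factor that regulates other imprinted genes, had 91.8, 65.7, 29.3 and 10.9 CPM. Igf2, the fetal growth factor, had 406, 410.1, 224 and 106 CPM, so it was level until d4, and Mest had 212, 389, 191 and 25.9 CPM with its highest value at d4. Peg3 had 118, 46.4, 31.2 and 26.5 CPM and took its largest step before d4. The list summed to 2107, 2079, 1051 and 504 CPM in remote spots, against 2730, 2580, 1504 and 813 CPM in the rest.

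Ribosomal protein genes that differed by 2-fold were lower at d14, with 1 exception. Of 81 tested ribosomal protein genes 12 fell at every step and 27 were at least 2-fold lower at d14 than at d1, with a median log2 ratio of -0.89. Among all genes tested, 3.58% fell and 8.33% were lower. Under TMM scaling 11 of the 12 lost the call and Rpl3 kept it. Rpl3 had 735, 624, 495 and 242 CPM. Its striated muscle paralog Rpl3l, on chromosome 17 from 24727820 to 24736143, was the 1 gene of the list that was at least 2-fold higher, with 30.3, 28.2, 60.02 and 262 CPM. It was 8.65-fold higher at d14 than at d1 (6.08 to 12.7). The elongation factors showed the same pairing. Eef1a1, the form of growing cells, had 3283, 2905, 2489 and 1036 CPM, and Eef1a2, the form of muscle and neurons, had 180, 209, 308 and 629 CPM. Paralogs share sequence, and how the authors' counting split reads between them is not given in the sources used here.

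Among 22 tested cardiac transcription factors and cofactors, Nfix rose and Bex1, Cited1 and Gata6 fell. Nfix, a nuclear factor I protein, had 11.6, 16.01, 21.5 and 33.4 CPM. Cited1, a coregulator of fetal tissues, had 119, 88.9, 27.3 and 6.13 CPM and was 19.3-fold lower at d14 than at d1 (9.89 to 43.2), each step outside counting error. Gata6, a cardiac zinc finger factor, had 167, 124, 99.1 and 77.6 CPM, and its call was lost under 2 settings. Rxrg, a retinoid receptor of muscle, had 8.02, 19.9, 27.3 and 61.3 CPM. The RNA-binding protein Mbnl1, which directs adult splicing, had 51.7, 61.3, 79.1 and 117 CPM, and Igf2bp2, a fetal messenger RNA binding protein, had 47.2, 26.5, 10.2 and 4.08 CPM.

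The genes with the largest ratios of d14 to d1 among risers that reached 50 CPM were Strit1, Csdc2, C1qtnf9, Art1, Shld1, Pi16, H2-K1, Lrtm1, Pltp, Aqp1, Hspb8, Mfap4, Tuba8, C1qa and Rxrg. Art1, an ADP-ribosyltransferase of striated muscle, had 7.13, 16.01, 38.6 and 173 CPM and was 24.3-fold higher at d14 than at d1 (12.1 to 56.8). Hspb8, a small heat shock protein that works with Bag3, had 38.3, 74.0, 158 and 378 CPM, and Bag3 itself had 98.0, 149, 164 and 220.5 CPM. Tuba8, an alpha-tubulin, had 29.4, 49.7, 115 and 246 CPM. These 3 genes, Art1, Hspb8 and Tuba8, passed at each step outside counting error.

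Other risers were less even over the steps. Csdc2, an RNA-binding cold shock protein, had 1, 3, 6 and 90 UMIs, so its ratio of 68.8 has an interval of 12.03 to 2745. Aqp1, the water channel of endothelial cells, had 46.3, 76.2, 82.5 and 461 CPM. H2-K1, a class I histocompatibility antigen, had 24.9, 65.7, 285 and 291 CPM, and its step from d4 to d7 was 4.34-fold. The calls of Csdc2, Aqp1 and H2-K1 were each lost when the outer tertiles were used in place of the median.

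Cytoskeleton, cyclin, immediate early and clock genes each had 1 to 3 members called at every step. The shares over all genes tested were 3.07% rising and 3.58% falling. Of 20 tested cytoskeleton and chromatin genes of immature cells, 9 were at least 2-fold lower at d14 than at d1, against 8.33% of all genes tested. The list's median log2 ratio to d1 was 0.79 at d4, 0.37 at d7 and -0.50 at d14, so it was higher before it was lower. Tuba1b, an alpha-tubulin, fell at every step with 902, 885, 810.1 and 377 CPM. Its call was lost under TMM scaling. Among D cyclins and inhibitors of cyclin-dependent kinases, Ccnd3 fell with 212, 139.6, 100.5 and 85.1 CPM, and the inhibitor Cdkn1a had 39.2, 30.9, 28.8 and 83.0 CPM. Of the immediate early genes Dusp1 and Klf2 rose, and Klf2, a factor of endothelial cells under flow, had 72.2, 147, 174 and 190.5 CPM. Of the circadian clock genes Hlf and Nr1d1 rose and Cry1 fell, but Hlf lost its call under 5 of the 8 settings, Nr1d1 under 2 and Cry1 under 1, and the hour of collection is not given in the sources used here.

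Among fallers that reached 50 CPM, the smallest ratios of d14 to d1 included those of Tnni1, Bex1, Ddc, Cited1, Gng2, H19, Snap91, Cox6b2, Ncam1, Myl9, Mcm5, Plagl1, Impa2 and Bex3. Bex1 had 82, 127, 101 and 2 UMIs, or 73.1, 70.1, 49.3 and 1.36 CPM, so nearly all of its fall came after d7. Ddc, aromatic amino acid decarboxylase, had 197, 119, 94.2 and 8.85 CPM. Snap91, a clathrin assembly protein, had 90.0, 82.8, 68.3 and 6.13 CPM. Gng2, a G protein subunit, changed early, with 116, 23.2, 12.7 and 6.13 CPM. Ncam1, the neural cell adhesion molecule of immature muscle, had 102, 72.9, 25.9 and 10.2 CPM.

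**Figure D4:**
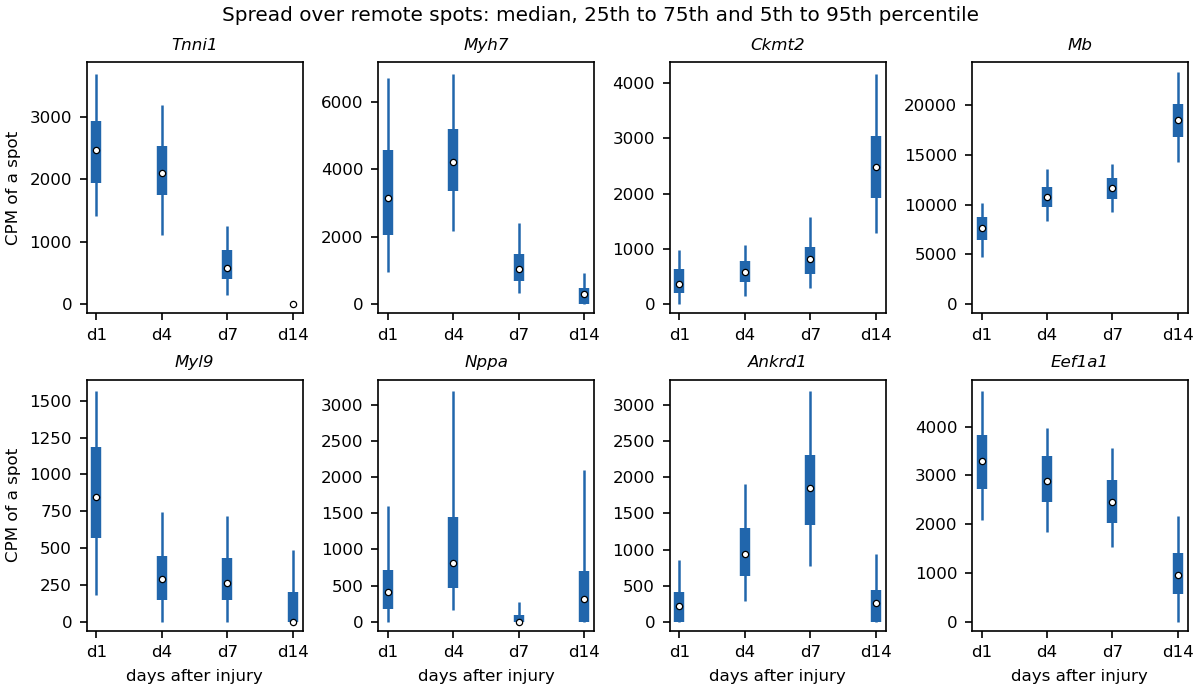
CPM of single remote spots for 8 genes by day, with the median (open circle), the 25th to 75th percentile (thick bar) and the 5th to 95th percentile (thin line), the days evenly spaced. The Mb ranges move up as a whole, the Tnni1 range collapses to 0 at d14, and Ankrd1 is high at d7 with a median of 1855 CPM.

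The spread over single spots differed between genes. For Mb the 5th percentile at d14, 14349 CPM, was above the 95th percentile at d7, 14103 CPM, so these ranges did not overlap. For Ckmt2 they did, with a 5th percentile of 1284 CPM at d14 and a 95th percentile of 1583 CPM at d7. Tnni1 had a median of 576 CPM per spot at d7 with 140.3 CPM at the 5th percentile, and a 95th percentile of 0 at d14. Spots from the same heart are not replicates, and the lower UMI count at d14 widens the spread of single spots there.

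Most of the possible courses over 3 steps turn, so turning courses being the more common is no finding. Of the 7453 genes 458 (6.15%) went up and 669 (8.98%) went down at each step by any amount, while 2218 (29.8%) went up to d4 and then down at both later steps. That last share rests on the d4 level, which depends on the scaling, and it was not counted under TMM scaling. Between d4 and d1, 459 genes (6.50%) differed upward by 2-fold or more and 90 (1.27%) downward, a split of 263 against 171 under TMM scaling. Against d4, 67 genes (0.956%) were higher and 223 (3.18%) lower at d7. That split was 110 against 99 under TMM scaling and 45 against 325 with all genes in the total. Against d7, 373 genes (5.55%) were higher and 326 (4.85%) lower at d14. The median log2 ratio over all genes was 0.20 between d4 and d1 and -0.21 between d7 and d4, and TMM scaling moved the d4 levels by -0.19 on the log2 scale, whereas all-gene CPM moved the d7 levels by -0.12.

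Levels at d4 and d7 that were both at least 2-fold above d1 and d14 were found for 58 genes (0.778%). The 5 clearest were Mdk, Postn, Pttg1, Egr1 and Ankrd1, of which Postn belongs to the rule. Ankrd1, a stretch-responsive protein of the titin filament, had 301, 1024, 1859 and 298 CPM. Mdk, the growth factor midkine, had 16.0, 105, 88.8 and 12.3 CPM. Pttg1, securin, which restrains the separation of sister chromatids, had 12.5, 65.7, 42.5 and 8.17 CPM. Egr1, the immediate early zinc finger factor named in the study's title, had 8.02, 42.0, 52.7 and 10.2 CPM from 9, 76, 108 and 15 UMIs in remote spots, against 19.03, 76.8, 80.7 and 13.8 CPM in the rest. Its d14 and d1 levels were within counting error of each other (ratio 1.27, 0.522 to 3.30).

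The reverse course, low at d4 and d7, was found for 30 genes (0.403%). The 5 clearest were Rbp7, Klf15, Timp4, Dpep1 and Prodh. Rbp7, a retinol-binding protein of endothelial cells, had 296, 93.3, 30.3 and 305 CPM. Klf15, a Krüppel-like factor induced by glucocorticoids, had 54.3, 9.38, 15.1 and 66.01 CPM. Timp4, the metalloproteinase inhibitor of the heart, had 44.5, 9.94, 9.27 and 129 CPM. Prodh, which breaks down proline, had 29.4, 8.83, 7.32 and 82.3 CPM.

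Other glucocorticoid-responsive genes showed a similar shape. The median log2 ratio of the 13 list members with enough UMIs was -1.15 at d4, -0.93 at d7 and 0.43 at d14. Tsc22d3, the glucocorticoid-induced leucine zipper, had 118, 84.4, 87.4 and 396 CPM, and Pdk4, which switches pyruvate away from oxidation, had 196, 88.3, 56.6 and 344 CPM. Hif3a instead was highest at d1, with 52.6, 5.52, 0.976 and 8.85 CPM. None of the 13 tested genes rose or fell at every step.

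Markers of other cell types also changed inside the remote spots. Of 10 fibroblast markers 4 rose (Clec3b, Dcn, Lum and Pi16), and 8 were at least 2-fold higher at d14 than at d1. Over all genes tested, 3.07% rose and 8.49% were 2-fold higher at d14. The 10 summed to 830.3, 1132, 1339 and 3002 CPM in remote spots, against 1072, 1937, 2461 and 5522 CPM in the rest. Of 12 macrophage markers, of which 8 were tested, 5 rose (C1qa, C1qb, Ctss, Fcer1g and Lyz2), and the 12 summed to 169, 198, 263 and 642 CPM in remote spots, against 763, 415, 459 and 1014 CPM in the rest. Under other settings C1qb lost its call in 4, Ctss in 3, Fcer1g in 6 and Lyz2 in 1. No member of either list was at 0 UMIs on any day.

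Of 8 pericyte markers 4 rose (Kcnj8, Notch3, Rgs5 and Vtn), and the 8 summed to 535, 745, 832 and 1121 CPM in remote spots, against 503, 770.3, 808 and 1128 CPM in the rest. Kcnj8 stands in both the pericyte and the ion channel list. For this and the next lists, the shares over all genes tested were 3.07% rising and 3.58% falling. Between d14 and d1 they were 8.49% higher and 8.33% lower by 2-fold. None of the 15 endothelial markers rose or fell at every step, but 5 (Aplnr, Esam, Ly6c1, Tek and Tie1) were at least 2-fold higher at d14 than at d1 and 0 lower. Their median log2 ratio was 0.59 at d14, with sums of 3386, 3267, 2832 and 3997 CPM. Neutrophil markers summed to 227, 46.9, 20.01 and 34.7 CPM in remote spots, with 4, 1, 4 and 4 of the 8 at 0, and of these S100a8 and S100a9 had 114 and 109.6 CPM at d1. Smooth muscle markers, which include Tagln and Myl9, summed to 1469, 594, 598 and 743 CPM in remote spots, against 1847, 1787, 1079 and 1105 CPM in the rest. Most members did not follow that sum. Of 5 tested, 3 (Myh11, Mylk and Tagln) were at least 2-fold higher at d14 than at d1 and 1 (Myl9) lower. The list's median log2 ratio in remote spots was 1.43 at d14. The part of other cells in the courses above was not tested.

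Atrial or skeletal muscle UMIs were present in 26.5%, 8.37%, 7.06% and 3.47% of the remote spots over the 4 days. The genes counted were Myl7, Sln, Bmp10, Mylpf, Tnnt3 and Tnni2. Without those spots 243 genes rose and 284 fell. Of these, 187 and 207 were among the 229 rising and 267 falling genes called with all remote spots. The 8 atrial markers summed to 84.6, 96.6, 63.9 and 59.9 CPM.

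The rest of the sections gave counts of similar size, of which under 50% of either list were shared. In the rest of the sections 232 of 7765 genes (2.99%) rose and 219 (2.82%) fell at every step. The sets shared 104 rising genes, 45.4% of the remote list and 44.8% of the other, and 107 falling genes, 40.1% of the remote list and 48.9% of the other. Of the remote calls, 5 risers and 6 fallers had a ratio of d14 to d1 in the opposite direction in the rest. No test of the difference between the sets was made, since each had 1 section a day.

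Some genes nevertheless had different values in the 2 sets. Lrtm1, a leucine-rich repeat membrane protein, had 12.5, 23.7, 56.1 and 139 CPM in remote spots, against 15.7, 9.91, 35.2 and 84.7 CPM in the rest. At d4 Xirp2 had 14.4 CPM in remote spots, against 105 CPM in the rest. Nppa, the atrial natriuretic peptide, which injured or stretched ventricle also makes, had 710.0, 1412, 58.1 and 604 CPM in remote spots, against 1697, 9149, 747 and 3550 CPM in the rest. At d4 Myl9 had 341 CPM in remote spots, against 804 CPM in the rest.

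**Figure D5:**
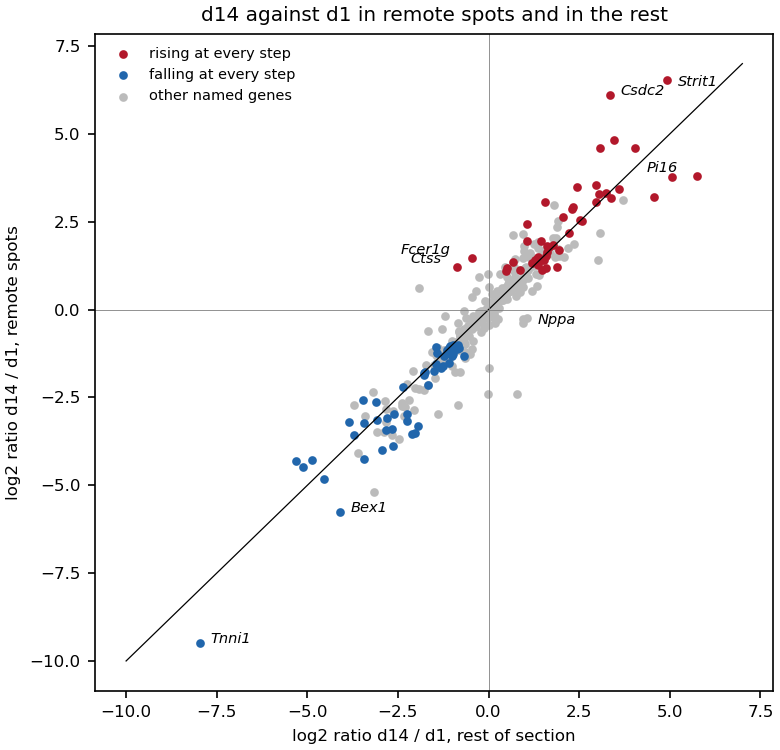
Log2 ratio of d14 to d1 in remote spots (vertical axis) against the rest of the sections (horizontal axis) for the genes of the naming rule, with rising genes red, falling genes blue and others grey, and the line of equal ratios in black. Most points lie along the line, Tnni1 is the lowest at a 722-fold lower level in remote spots, and Fcer1g, Ctss and Nppa lie on opposite sides of 0 in the 2 sets.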

How the data were processed

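The deposited matrices hold whole UMI counts per gene and spot, 1 matrix a section, and per the file headers Space Ranger wrote them. The submitters' processing notes name Space Ranger 1.3.0, Seurat 4.1.1 and mm10. From these counts, UMIs of the remote spots were summed by day and scaled to counts per 1000000 UMIs (CPM), with 8 haemoglobin genes and 13 genes of the mitochondrial genome kept out of the total. A single UMI was worth 0.488 to 0.891 CPM. Intervals are exact Poisson (level) and Clopper-Pearson (ratio), and PCR and capture are outside them. Zeros entered list medians at 3 counts.

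The members, lists and rules were chosen with earlier results of these data known. Named were the 15 largest and 15 smallest ratios among called genes that reached 50 CPM, the 5 clearest peaks and troughs, the 10 rule genes, and in each list the 6 members with most UMIs plus those called. Predicted, ribosomal protein, haemoglobin, mitochondrially encoded, Y-linked, Xist and Tsix genes were left out of the ratio groups. Other genes of the X chromosome were not left out. Some named genes are not reported here. Genes chosen outside that rule are Eif2s3y, Xist, and the 6 genes of atrial or skeletal muscle.

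The calling code was run on simulated counts with 2-fold steps and counting error only. The simulation held no difference between sections, so it does not bear on whether the calls would recur in other hearts. Alternatives were TMM (edgeR 4.0.16, R 4.3.3), totals with all genes, equal weight per spot, other UMI minima, tertiles, shares without haemoglobin and mitochondrial UMIs in the rule, other gene minima and whole changes, no spots with atrial or skeletal muscle UMIs, and each day left out. Python 3.11.15, numpy 2.4.6, pandas 2.3.3 and scipy 1.17.1 were used. A spot can hold several cells, so no doublet caller was run, and the 30 to 120 barcodes that pairs of days share mark array positions. Gene positions come from GENCODE vM21, which matched 32158 of 32285 features.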

Additional observations from a re-analysis of the deposited data

Results flagged for a closer look

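A few named genes had ratios of d14 to d1 on opposite sides of 1 in remote spots and in the rest of the sections. The difference between the sets was not tested for any of them, since each set had 1 section a day. Fcer1g, a receptor chain of myeloid cells, had a ratio of 2.78 (95% interval 1.40 to 6.003) in remote spots, against 0.725 (0.568 to 0.926) in the rest. Ctss, a lysosomal protease of the same cells, had 2.29 (1.13 to 5.03) in remote spots, against 0.543 (0.422 to 0.697) in the rest. Nppa, the atrial natriuretic peptide, had 0.851 (0.773 to 0.938) in remote spots, against 2.09 (2.01 to 2.17) in the rest. Actc1, cardiac actin, had 1.03 (1.01 to 1.06) in remote spots, against 0.968 (0.953 to 0.982) in the rest, a difference of a few percent on either side.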

How the results depend on the processing

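No paired analysis was possible because each day had 1 section. Of 134 values of the counts under other settings, 86 stayed within 1.5 times the main count. Under TMM scaling 263 genes were higher and 171 lower at d4 against d1, and 110 higher and 99 lower at d7 against d4. With tertiles these were 748 and 167, and 101 and 418. A minimum of 10 CPM gave 922 higher and 912 lower at d14 against d1, 892 and 185 at d4 against d1, 116 and 493 at d7 against d4, and 583 and 600 at d14 against d7. A minimum of 50 CPM gave 134 rising and 122 falling genes, and, in the same order of comparisons, 286 and 248, 120 and 42, 25 and 51, and 203 and 136. A minimum of 10 UMIs gave 444 rising and 507 falling genes, and 1644 and 1667, 1842 and 485, 408 and 1154, and 1063 and 1457. Intervals that leave out 1 at each step left 27 rising and 24 falling genes. A whole change of 1.5-fold gave 359 and 504, of 3-fold 125 and 105, and of any size 458 and 669. Without d1, 784 genes fell at every step. Without d4, 464 rose and 511 fell, and without d7, 445 rose. Settings that lower the minimum, the fold or the number of steps count more genes by construction, and the cause of the other moves was not tested.

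Of 313 other values of list medians of the log2 ratio of d14 to d1, 5 changed sign. Those that kept their sign but moved the ratio by over 1.5-fold were fetal sarcomere isoforms (-1.78) at -0.83 without spots with atrial or skeletal muscle UMIs and -0.05 over members with 50 or more UMIs, mitosis genes (-1.39) at -0.48 with tertiles, smooth muscle markers (1.43) at 0.75 with tertiles, and endocardial markers (-1.39) at -2.30 with equal weight per spot. Signs changed for nuclear receptors at -0.08 with equal weight per spot, atrial markers at -0.14 with tertiles and -0.24 without spots with atrial or skeletal muscle UMIs, skeletal muscle markers at -0.83 without those spots, and conduction markers at -0.17 over members with 50 or more UMIs. Depth limits genes of few UMIs most at d1, which had 151 remote spots, and single spots at d14, whose median was 3703 UMIs.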
